A study of Mus musculus with 12 samples.

Results

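Ribosome biogenesis and RNA polymerase I were followed through 42 genes whose products transcribe ribosomal RNA or build the ribosomal subunits in the nucleolus. The genes were chosen by name, and each was read from the probe set that carried its symbol alone in the deposited annotation, or from the one with the highest mean over the arrays where several did. A probe set was found for 40 of the 42 members, out of 19937 symbols in all, and all 40 passed the filter on dim probe sets. Ppan, a 60S assembly factor, shares its probe set with another gene. The expression of Ppan and Noc2l was not analysed here, and both appear only in the promoter counts.

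The study asked how the liver responds to insulin fused to a carrier protein. Liver RNA of C57BL/6 mice, 6 weeks old per the labels, was hybridized to 12 arrays, 3 per group, 6 hours after a subcutaneous dose. Mice received 55 nmol/kg of Albulin, which is insulin fused to albumin, the same dose of Insulin-Apo, in which apolipoprotein A-I carries a single-chain insulin, the same dose of insulin glargine, a long-acting insulin analogue, or saline. The mice were wild type, and no allele or other agent is named.

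Ribosomes are made in the nucleolus, where RNA polymerase I transcribes the precursor of the large ribosomal RNAs. Small nucleolar ribonucleoproteins (snoRNPs) then modify the precursor, the small subunit (SSU) processome folds and cuts it towards the 40S subunit, and further factors assemble the 60S subunit. Insulin and nutrient signals are known to stimulate ribosome production, a costly process for the hepatocyte.

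All insulins were accompanied by higher levels of a part of these genes, and no member was called lower against saline. A probe set was called when limma's B statistic, the log odds of a difference, was over 0. Against saline, 6 of the 40 members were called higher after Albulin (Nop58, Nol8, Tsr1, Gnl2, Gnl3 and Heatr1), where 1.37% of all probe sets were called higher and 1.04% lower. After Insulin-Apo 5 members were called higher (Nop58, Nol8, Gnl3, Tsr1 and Utp18), against 1.34% of all probe sets higher and 0.804% lower. After insulin glargine 10 members were called higher (Nop58, Heatr1, Utp20, Gnl2, Nop56, Ddx21, Rrp12, Gnl3, Tsr1 and Nop14), against 2.24% higher and 2.6% lower. The counts for Albulin and Insulin-Apo came from a fit of 9 arrays and that for insulin glargine from a fit of all 12. These counts therefore do not share 1 estimate of the spread. In the fit of all 12 arrays Nol8 lost its call after Albulin, and Nol8 and Utp18 lost theirs after Insulin-Apo. Gnl3, Nop58 and Tsr1 were called in all 3 comparisons, Gnl2, Heatr1 and Nol8 in exactly 2, and Ddx21, Nop14, Nop56, Rrp12, Utp18 and Utp20 in exactly 1. The 3 comparisons share the saline arrays, so their calls are not independent of each other.

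Some of these counts rested on single arrays. The Albulin count was 3 without Albulin replicate 1 and 3 without Albulin replicate 3. For Insulin-Apo, 2 members were called when its replicate 1 was left out, and 3 when its replicate 2, Albulin replicate 1, saline replicate 1 or saline replicate 2 was. For insulin glargine, 4 were called when saline replicate 2 was left out, 5 when saline replicate 3 was and 6 when insulin glargine replicate 2 was.

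**Figure D1:**
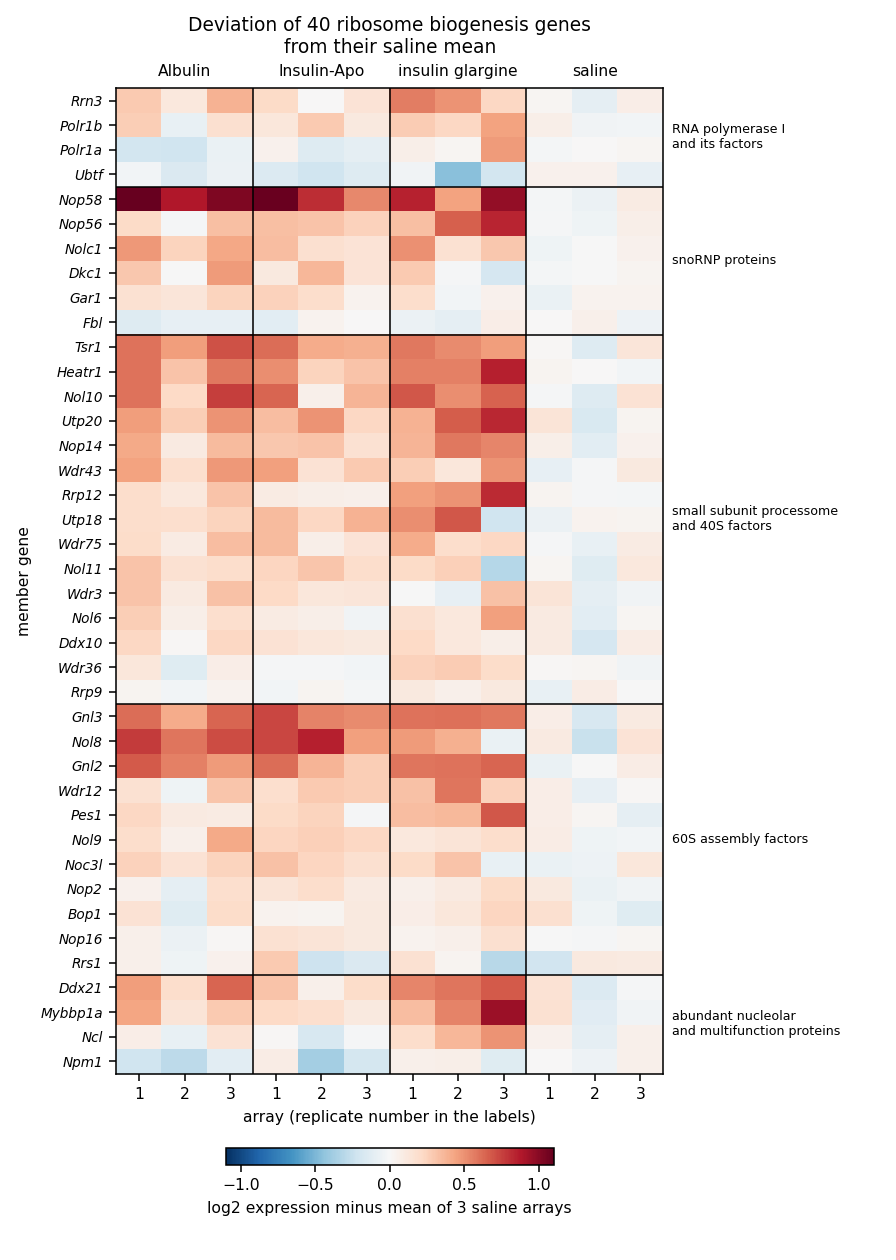
Each cell shows 1 member (rows, in role groups) on 1 array (columns, in groups) as its log2 expression minus the mean of the 3 saline arrays, with red above and blue below that mean. Most rows are red in the Albulin, Insulin-Apo and insulin glargine columns, and Fbl, Npm1 and Ubtf are not.

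Most members, 28 of the 40, were called in no comparison with saline, so the values over all members are a description and no test of the group. On the log2 scale, where 1 unit is a 2-fold difference, the median log2 fold change of the 40 members was 0.21 after Albulin, 0.18 after Insulin-Apo and 0.29 after insulin glargine, beside medians over all probe sets of 0.00, -0.02 and 0.00. The fold change was positive for 36, 32 and 36 of the 40 members. It was positive in all 3 comparisons for 32 members, negative in all 3 for Fbl, Npm1 and Ubtf, and of mixed sign for Ncl, Polr1a, Rrp9, Wdr36 and Rrs1. Some of these signs rest on values near 0. In each comparison with saline, 6 uncalled members changed sign under at least 1 alternative, among them Nop16 after Albulin, Rrp9 and Wdr36 after Insulin-Apo and Npm1 after insulin glargine when the arrays were scaled in another way, and Fbl after insulin glargine when its probe sets were averaged (0.08). Saline had the lowest of the 4 group means for 32 members and the highest for 3, while insulin glargine had the highest for 21, Albulin for 10 and Insulin-Apo for 6.

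Under other call rules the picture for the members was as follows. With an adjusted p under 0.05 (limma, Benjamini-Hochberg over all probe sets), 8 members were higher after Albulin, where 2.42% of all probe sets were. By the same rule 6 were higher after Insulin-Apo (2.18% of all probe sets) and 18 after insulin glargine (5.08%). Every array lay above every saline array for 19 members after Albulin (11.6% of all probe sets), 21 after Insulin-Apo (10.4%) and 25 after insulin glargine (11.8%). No member was lower with an adjusted p under 0.05. At an unadjusted p under 0.05 (limma), 23 members were higher and 1 lower after Albulin, against 8.98% and 9.08% of all probe sets, 18 and 1 after Insulin-Apo, against 9.13% and 8.28%, and 22 and 1 after insulin glargine, against 10.6% and 11.9%.

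**Figure D2:**
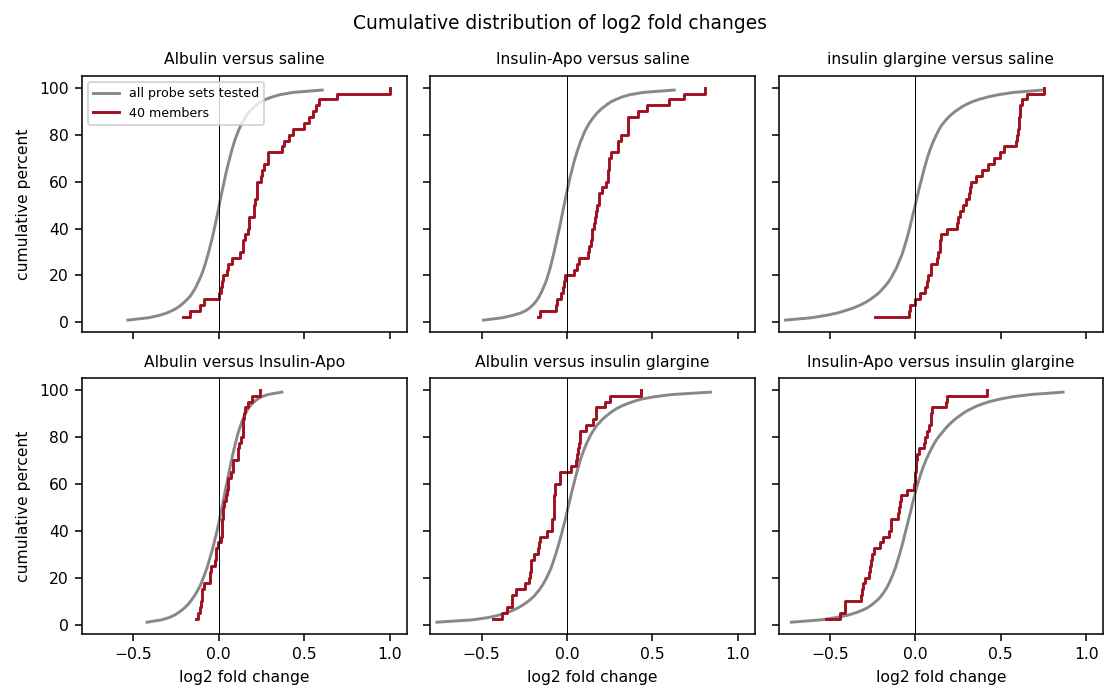
Each panel shows the cumulative percent (vertical axis) of log2 fold changes (horizontal axis) in 1 comparison, for all probe sets tested (grey) and the 40 members (red). In the 3 comparisons with saline the members' curve lies to the right of the grey curve over most of its range, with medians of 0.21, 0.18 and 0.29.

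Arrays of a group resembled each other closely, with mean correlations between 0.990 and 0.997 and medians between 7.70 and 7.77, and insulin glargine replicate 3 had the lowest correlation. The median deviation of the 40 members from their saline means was 0.24, 0.10 and 0.30 on the Albulin arrays, 0.23, 0.18 and 0.15 on the Insulin-Apo arrays, 0.28, 0.27 and 0.28 on the insulin glargine arrays and 0.02, -0.05 and 0.03 on the saline arrays. Albulin replicate 2 had the lowest of these median deviations in its group, at 0.10. Without insulin glargine replicate 3, 7 members were called higher after insulin glargine.

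The tissue label was checked on hepatocyte markers, whose summed level (log2 of the summed linear values of 11 genes) lay between 17.88 and 17.91 on the Albulin, 17.85 and 17.89 on the Insulin-Apo, 17.89 and 17.91 on the insulin glargine and 17.88 and 17.89 on the saline arrays. No hepatocyte marker was called against saline, and at an unadjusted p under 0.05 2 were higher and 1 lower after Albulin, 2 and 1 after Insulin-Apo and 0 and 0 after insulin glargine (limma). Of 11 neutrophil markers, 3 were called higher after Albulin, and their summed level lay between 11.04 and 11.18 after Albulin, 10.88 and 11.07 after Insulin-Apo, 10.45 and 10.60 after insulin glargine and 10.57 and 10.74 after saline. By unadjusted p under 0.05 (limma), 5 of them were higher and 0 lower after Albulin, 6 and 0 after Insulin-Apo and 0 and 2 after insulin glargine. Of 11 Kupffer cell and macrophage markers, 1 was called higher after Insulin-Apo, with summed levels of 14.21 to 14.45 after Albulin, 13.94 to 14.54 after Insulin-Apo, 13.52 to 14.27 after insulin glargine and 13.86 to 14.24 after saline. Here the counts at an unadjusted p under 0.05 (limma) were 2 higher and 0 lower after Albulin, 5 and 0 after Insulin-Apo and 0 and 2 after insulin glargine. The 5 B cell markers, of which none was called against saline (2 higher after Albulin and 1 lower after insulin glargine at an unadjusted p under 0.05, limma), summed to 9.82 to 10.10 after Albulin, 9.63 to 9.68 after Insulin-Apo, 9.40 to 9.46 after insulin glargine and 9.59 to 9.70 after saline. Of 9 markers of liver sinusoidal endothelium, none was called against saline. At an unadjusted p under 0.05, 5 were higher and 0 lower after Albulin (median log2 fold change 0.22), 3 and 0 after Insulin-Apo (median 0.18) and 3 and 1 after insulin glargine (median 0.00, with Lyve1 highest at 1.15). They summed to 14.10 to 14.23 after Albulin, 14.14 to 14.26 after Insulin-Apo, 13.63 to 14.13 after insulin glargine and 13.61 to 14.21 after saline. Of all probe sets, 8.98% were higher and 9.08% lower after Albulin at an unadjusted p under 0.05 (limma). The shares were 9.13% and 8.28% after Insulin-Apo and 10.6% and 11.9% after insulin glargine. The part of these cell types in the members' levels was not tested. In bulk tissue, a lower level from fewer cells of a type and one from less RNA per cell cannot be told apart.

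The promoter windows of the 3 members called after every insulin, and of Rrn3, the initiation factor of RNA polymerase I, are shown with the E-box and ETS words they hold, letters that MYC and ETS family factors are known to recognise. Windows of 300 bases, from 250 before to 50 after the annotated start, were taken from RefSeq (GRCm38.p6) and matched 34 of the 42 members. Capitals mark CACGTG (the E-box), CCGGAAG (an ETS core, written CTTCCGG on the other strand) and CTCGCGAG, searched on both strands, and no match shown overlaps another.
Nop58: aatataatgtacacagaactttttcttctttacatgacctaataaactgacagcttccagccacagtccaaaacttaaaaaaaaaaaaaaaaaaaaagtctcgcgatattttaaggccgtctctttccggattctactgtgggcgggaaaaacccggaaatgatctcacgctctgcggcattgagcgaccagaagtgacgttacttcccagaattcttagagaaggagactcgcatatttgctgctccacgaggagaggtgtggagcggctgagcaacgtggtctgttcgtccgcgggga
Gnl3: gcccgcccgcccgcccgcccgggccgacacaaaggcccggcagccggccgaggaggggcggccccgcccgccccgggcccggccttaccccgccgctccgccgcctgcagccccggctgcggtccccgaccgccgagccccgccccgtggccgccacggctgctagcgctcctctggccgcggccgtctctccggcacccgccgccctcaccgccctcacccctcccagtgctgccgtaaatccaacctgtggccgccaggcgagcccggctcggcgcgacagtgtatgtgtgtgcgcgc
Tsr1: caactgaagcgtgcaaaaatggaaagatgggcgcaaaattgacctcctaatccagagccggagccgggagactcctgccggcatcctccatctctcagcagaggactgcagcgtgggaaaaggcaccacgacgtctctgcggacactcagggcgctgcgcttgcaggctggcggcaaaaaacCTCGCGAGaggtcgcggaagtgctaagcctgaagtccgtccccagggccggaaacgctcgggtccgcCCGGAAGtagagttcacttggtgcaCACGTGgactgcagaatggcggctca
Rrn3: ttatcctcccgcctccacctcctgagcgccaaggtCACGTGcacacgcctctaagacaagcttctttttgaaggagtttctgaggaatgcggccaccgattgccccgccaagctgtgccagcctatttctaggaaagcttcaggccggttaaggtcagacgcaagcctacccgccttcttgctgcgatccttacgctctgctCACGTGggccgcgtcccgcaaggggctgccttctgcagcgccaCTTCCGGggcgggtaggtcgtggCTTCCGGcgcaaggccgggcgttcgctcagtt

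These windows lie at chr1:59684756-59685055 (plus strand) for Nop58, chr14:31019082-31019381 (minus strand) for Gnl3, chr11:74897830-74898129 (plus strand) for Tsr1 and chr16:13780449-13780748 (plus strand) for Rrn3. Nop58 and Gnl3 held none of the 3 words. Tsr1 held each of them once, with CTCGCGAG starting 68 bases before the annotated start, CCGGAAG 1 base before it and the E-box 24 bases after it. Rrn3 held E-boxes 215 and 48 bases before the start, and ETS words 5 bases before and 18 bases after it. Rrn3 was not called against saline. The windows of the other RNA polymerase I members, Polr1a, Polr1b and Ubtf, held none of the 3 words. By gene, an E-box was found in 9 of the 34 members (26.5%) and in 8.09% of all 27025 genes with a window, or 8.91% of protein-coding genes. The ETS word was found in 13 of 34 (38.2%), Ppan and Noc2l among them, against 9.93% of all genes and 12.9% of protein-coding genes. CTCGCGAG was found in 2 of 34 (5.88%, Nol9 and Tsr1), against 1.04% and 1.41%. Of 10 members called against saline with a window, 3 (30%) held an E-box, and 6 of 22 (27.3%) of those not called did. For the ETS word these were 3 of 10 (30%) and 8 of 22 (36.4%), and for CTCGCGAG 1 of 10 (10%) and 1 of 22 (4.55%). A match describes the letters in these windows and does not show that a factor binds there.

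Among the RNA polymerase I members, no fold change against saline was called. At an unadjusted p under 0.05 (limma), 1 of 4 was higher and 1 lower after Albulin, against 8.98% and 9.08% of all probe sets. After Insulin-Apo 0 and 1 were, against 9.13% and 8.28%, and after insulin glargine 2 and 1, against 10.6% and 11.9%. Rrn3, which recruits the polymerase to the rRNA gene promoter, had 10.40, 10.22 and 10.49 in the Albulin arrays, 10.32, 10.11 and 10.26 in the Insulin-Apo arrays, 10.67, 10.60 and 10.33 in the insulin glargine arrays and 10.13, 10.01 and 10.18 in the saline arrays (probe set 10433672). All Albulin and insulin glargine arrays lay above the saline arrays, and the Insulin-Apo arrays overlapped them. The log2 fold change against saline, given with its standard error throughout, was 0.26 ± 0.09 after Albulin, 0.12 ± 0.09 after Insulin-Apo and 0.43 ± 0.10 after insulin glargine. The last had an adjusted p of 0.0165 by limma but a B under 0. Polr1b, the second-largest subunit, had 9.72, 9.37 and 9.63 in the Albulin arrays, 9.57, 9.74 and 9.56 in the Insulin-Apo arrays, 9.73, 9.68 and 9.90 in the insulin glargine arrays and 9.52, 9.41 and 9.43 in the saline arrays (probe set 10475965). Its Insulin-Apo and insulin glargine arrays all lay above saline, while Albulin replicate 2 did not, and its log2 fold changes were 0.12 ± 0.09 after Albulin, 0.17 ± 0.09 after Insulin-Apo and 0.32 ± 0.10 after insulin glargine, the last with an adjusted p of 0.0542.

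Polr1a, the largest subunit of RNA polymerase I, had 9.39, 9.37 and 9.52 in the Albulin arrays, 9.64, 9.45 and 9.49 in the Insulin-Apo arrays, 9.66, 9.62 and 10.07 in the insulin glargine arrays and 9.57, 9.60 and 9.61 in the saline arrays (probe set 10539042). Insulin glargine replicate 3 was the highest of these arrays, and all Albulin arrays lay below the saline arrays. Its log2 fold changes were -0.17 ± 0.07 after Albulin (adjusted p = 0.235, limma), -0.07 ± 0.07 after Insulin-Apo and 0.19 ± 0.11 after insulin glargine (adjusted p = 0.355). Ubtf, the upstream binding factor of the rRNA gene promoter, had 10.66, 10.53 and 10.62 in the Albulin arrays, 10.54, 10.47 and 10.55 in the Insulin-Apo arrays, 10.65, 10.23 and 10.48 in the insulin glargine arrays and 10.73, 10.73 and 10.59 in the saline arrays (probe set 10391625). The Albulin and insulin glargine arrays overlapped saline, all Insulin-Apo arrays lay below it, and its log2 fold changes of -0.08, -0.17 and -0.23 after Albulin, Insulin-Apo and insulin glargine were all negative and uncalled.

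The snoRNP proteins held the member with the highest fold change after each insulin. Nop58, a core protein of the box C/D snoRNPs that guide methylation of rRNA, had 9.85, 9.64 and 9.78 in the Albulin arrays, 9.84, 9.56 and 9.28 in the Insulin-Apo arrays, 9.60, 9.19 and 9.72 in the insulin glargine arrays and 8.73, 8.69 and 8.85 in the saline arrays (probe set 10346634). Each array of the insulin groups lay above each saline array. Its log2 fold change was 1.00 ± 0.12 after Albulin (adjusted p = 0.00171, limma), 0.81 ± 0.12 after Insulin-Apo (adjusted p = 0.00581) and 0.75 ± 0.15 after insulin glargine (adjusted p = 0.00559). Nop58 kept its calls after Albulin and Insulin-Apo under all 21 alternatives, and after insulin glargine under 18 of 23. The insulin glargine call was lost without any 1 saline array, without insulin glargine replicate 1 and without replicate 3, where the log2 fold change was 0.64.

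Nop56, which pairs with Nop58 in the same particles, had 10.21, 9.99 and 10.33 in the Albulin arrays, 10.33, 10.31 and 10.25 in the Insulin-Apo arrays, 10.33, 10.66 and 10.83 in the insulin glargine arrays and 9.99, 9.95 and 10.06 in the saline arrays (probe set 10476093). All Insulin-Apo and insulin glargine arrays lay above saline, while Albulin replicate 2 did not. Its log2 fold changes were 0.18 ± 0.09 after Albulin, 0.30 ± 0.09 after Insulin-Apo and 0.61 ± 0.12 after insulin glargine. Only the last was called (adjusted p = 0.00526, limma), and the call was lost without insulin glargine replicate 2, without replicate 3, without any 1 saline array or in a fit of only the insulin glargine and saline arrays. Nolc1, a chaperone of snoRNPs, reached log2 fold changes of 0.38, 0.23 and 0.32 after Albulin, Insulin-Apo and insulin glargine, with an adjusted p of 0.0225 after Albulin and a B just under 0. The pseudouridine synthase Dkc1 had 0.25, 0.21 and 0.03 in the same order, and Gar1, its partner in box H/ACA particles, had 0.18, 0.16 and 0.07. Fbl, the methyltransferase of the box C/D particles, had -0.11, -0.02 and -0.03, and its other probe set had 0.03, 0.02 and 0.20, so neither was called. Of these 3 box C/D partners, Nop58 was called in every comparison with saline, Nop56 in 1 and Fbl in none.

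**Figure D3:**
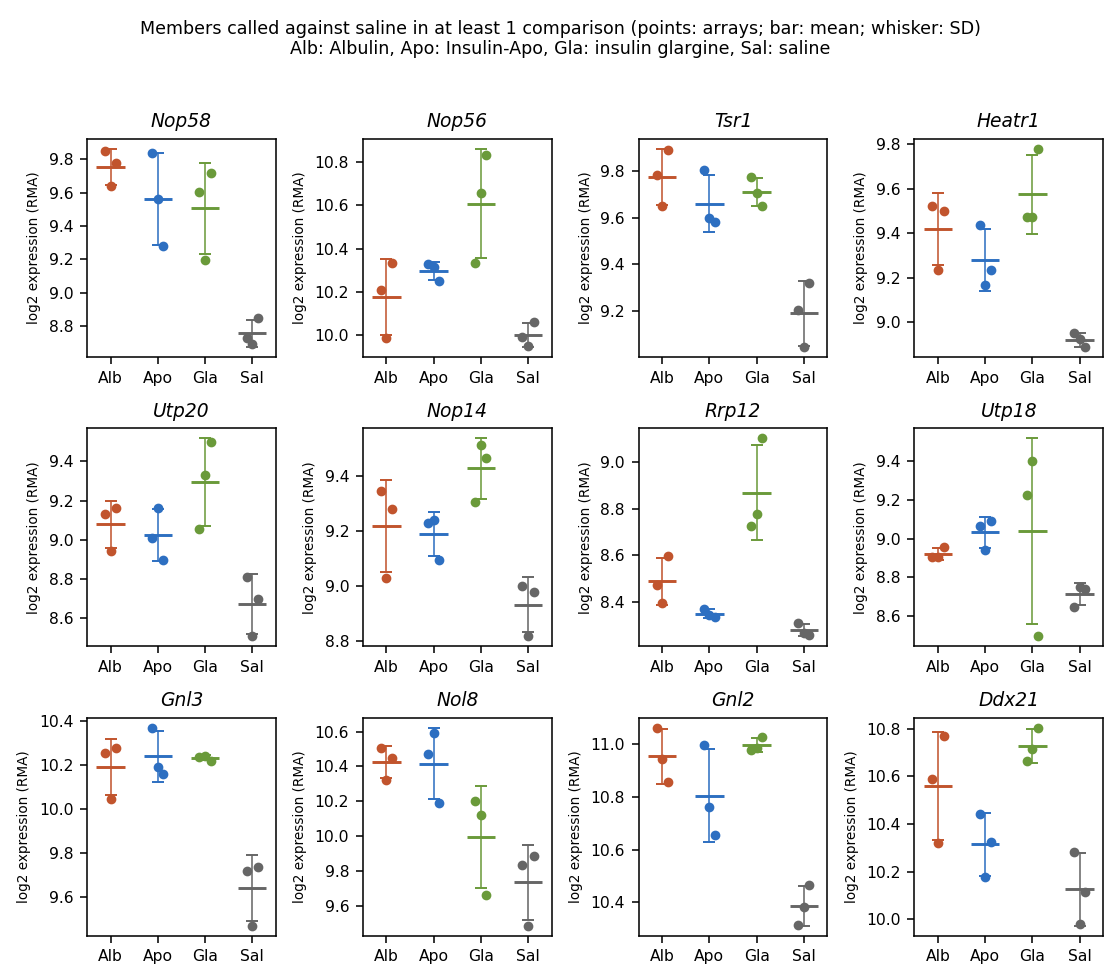
Each panel shows 1 of the 12 members called against saline in at least 1 comparison, with log2 expression (vertical axis, not from 0) per array as points, the group mean as a bar and the SD as a whisker. Nop58, Gnl3, Gnl2, Tsr1, Heatr1, Utp20, Nop14 and Rrp12 have all arrays of the insulin groups above all saline arrays. The insulin glargine arrays of Utp18 and Nol8 are spread widely.

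The largest group was the SSU processome and 40S factors, in which 15 of 15 log2 fold changes were positive after Albulin (median 0.22), 13 after Insulin-Apo (median 0.24) and 15 after insulin glargine (median 0.30). Tsr1, a factor of late 40S maturation, had 9.78, 9.65 and 9.89 in the Albulin arrays, 9.80, 9.60 and 9.58 in the Insulin-Apo arrays, 9.77, 9.71 and 9.65 in the insulin glargine arrays and 9.20, 9.05 and 9.32 in the saline arrays (probe set 10378508). No array of an insulin group overlapped the saline arrays. Against saline, it stood at 0.58 ± 0.09 after Albulin (adjusted p = 0.00687, limma), 0.47 ± 0.09 after Insulin-Apo (adjusted p = 0.0232) and 0.52 ± 0.09 after insulin glargine (adjusted p = 0.00352). The Albulin call held under all 21 alternatives. The Insulin-Apo call held under 13 of 21 and was lost without any 1 Insulin-Apo array, without Albulin replicate 1, without saline replicate 1, without saline replicate 2 and in a fit of only the Insulin-Apo and saline arrays. The insulin glargine call was lost without saline replicate 2 and without insulin glargine replicate 1.

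Heatr1, the counterpart of yeast Utp10, which couples rRNA transcription to processing, had 9.52, 9.23 and 9.50 in the Albulin arrays, 9.43, 9.17 and 9.23 in the Insulin-Apo arrays, 9.47, 9.47 and 9.78 in the insulin glargine arrays and 8.95, 8.92 and 8.89 in the saline arrays (probe set 10403511). Again each array of the insulin groups lay above saline. The log2 fold change came to 0.50 ± 0.09 after Albulin (adjusted p = 0.0136, limma), 0.36 ± 0.09 after Insulin-Apo, which was not called (adjusted p = 0.0602), and 0.65 ± 0.11 after insulin glargine (adjusted p = 0.00191). The insulin glargine call held under all 23 alternatives, and the Albulin call was lost without any 1 saline array, without Albulin replicate 1 or without Albulin replicate 3. The promoter window of Heatr1 held the ETS word 16 bases before its start.

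Rrp12, which takes part in the export of ribosomal precursors, had 8.47, 8.40 and 8.60 in the Albulin arrays, 8.37, 8.34 and 8.34 in the Insulin-Apo arrays, 8.73, 8.78 and 9.10 in the insulin glargine arrays and 8.31, 8.27 and 8.26 in the saline arrays (probe set 10467653). Its insulin glargine arrays lay above all others, and its Albulin and Insulin-Apo arrays lay above saline by little. The log2 fold change was 0.59 ± 0.09 after insulin glargine (adjusted p = 0.00155, limma), 0.21 ± 0.07 after Albulin and 0.07 ± 0.07 after Insulin-Apo, the last 2 uncalled. The insulin glargine call was kept when any 1 array was left out and was lost in a fit of only the insulin glargine and saline arrays.

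Utp20 and Nop14, both components of the SSU processome, were called after insulin glargine, with log2 fold changes of 0.63 ± 0.12 (adjusted p = 0.00521, limma) and 0.50 ± 0.10 (adjusted p = 0.0052). Against saline they reached 0.41 and 0.29 after Albulin, and 0.35 and 0.26 after Insulin-Apo. Both insulin glargine calls were lost without saline replicate 2 or 3, without insulin glargine replicate 2 or 3 and in a fit of only the insulin glargine and saline arrays. The Utp20 call was also lost with array quality weights. Utp18, also of the processome, was called after Insulin-Apo at 0.32 ± 0.06 (adjusted p = 0.0242), but the call was kept under only 7 of 21 alternatives and was lost when any 1 array other than Insulin-Apo replicate 2 was left out. After insulin glargine, Utp18 had 9.22 and 9.40 on replicates 1 and 2 and 8.50 on replicate 3, which lay below the saline arrays.

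The remaining members of this group were not called against saline. Their log2 fold changes after Albulin, Insulin-Apo and insulin glargine were 0.53, 0.36 and 0.62 for Nol10, the mouse counterpart of yeast Enp2. For Wdr43 they were 0.37, 0.30 and 0.30, for Wdr75 0.21, 0.19 and 0.28 and for Nol11 0.22, 0.24 and 0.05, 3 genes of the processome subcomplex that works with rRNA transcription. For Wdr3 they were 0.24, 0.16 and 0.08, for Wdr36 0.02, -0.02 and 0.24 and for Nol6 0.17, 0.04 and 0.25, all of them processome proteins. The helicase Ddx10 had 0.15, 0.13 and 0.13, and Rrp9, a protein of the U3 snoRNP, had 0.01, -0.01 and 0.09. Nol10 had the highest of these fold changes, with an adjusted p of 0.0959 after Albulin, 0.283 after Insulin-Apo and 0.0221 after insulin glargine (limma).

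**Figure D4:**
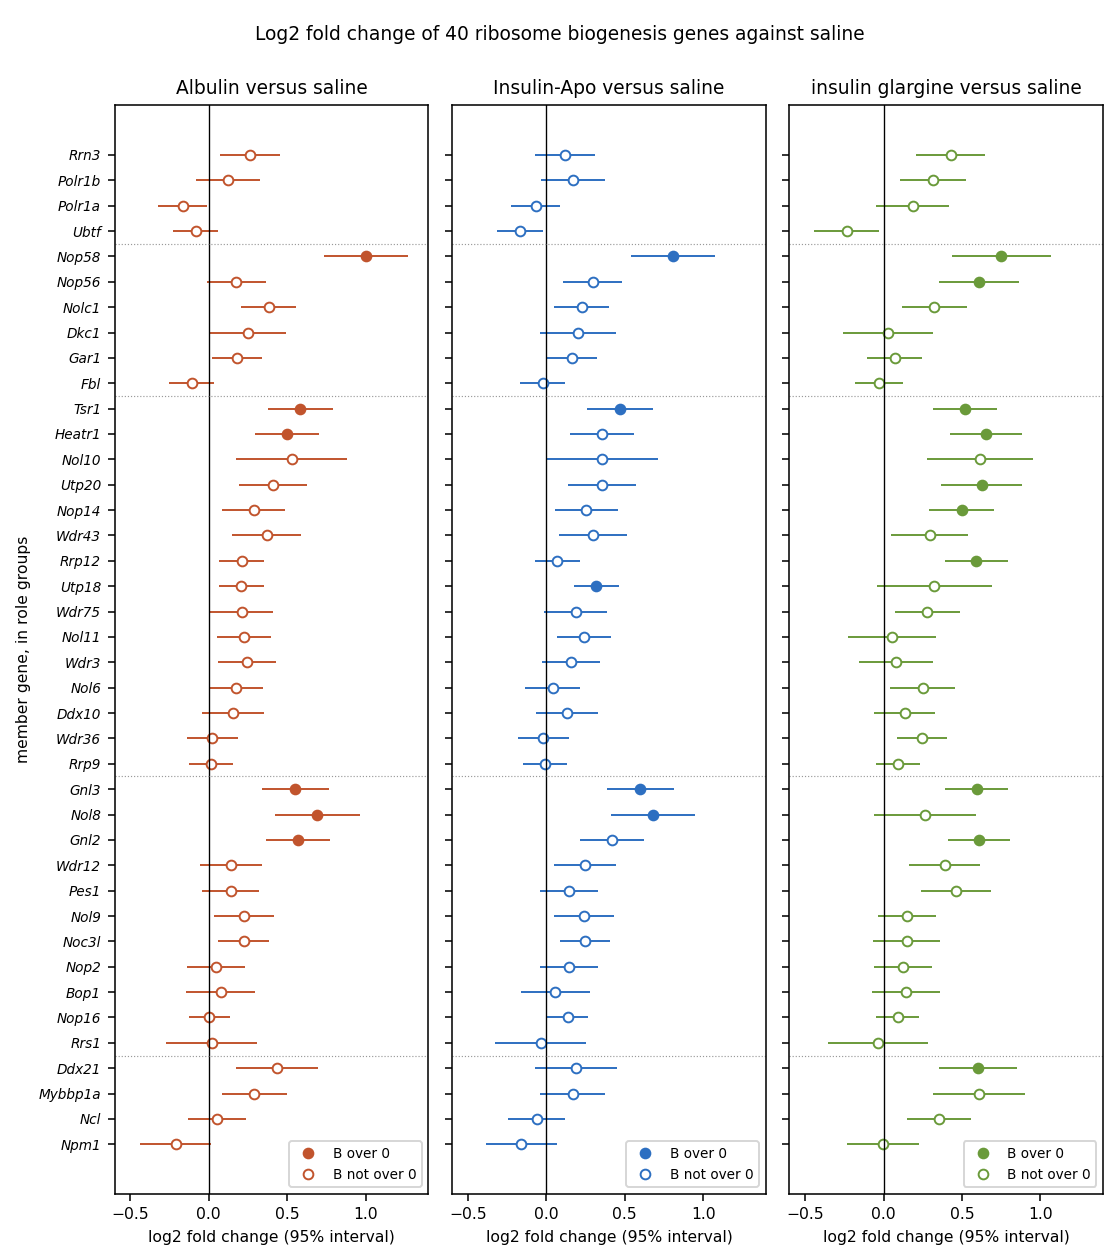
Each panel shows the log2 fold change (horizontal axis) of the 40 members (rows, in role groups) against saline for 1 insulin, with its 95% interval as a line and filled points for members with B over 0. Filled points number 6 for Albulin, 5 for Insulin-Apo and 10 for insulin glargine, and all lie to the right of 0.

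Among the 60S assembly factors (11 tested), 3 were called higher after Albulin, 2 after Insulin-Apo and 2 after insulin glargine. Of all probe sets, 1.37%, 1.34% and 2.24% were. Gnl3 (nucleostemin), a nucleolar GTPase abundant in dividing cells, had 10.25, 10.05 and 10.28 in the Albulin arrays, 10.37, 10.19 and 10.16 in the Insulin-Apo arrays, 10.24, 10.24 and 10.22 in the insulin glargine arrays and 9.72, 9.47 and 9.74 in the saline arrays (probe set 10418480). The insulin groups overlapped each other and lay above saline throughout. In log2 fold change it reached 0.55 ± 0.10 after Albulin (adjusted p = 0.0101, limma), 0.60 ± 0.10 after Insulin-Apo (adjusted p = 0.00836) and 0.59 ± 0.09 after insulin glargine (adjusted p = 0.0015). The calls held under all 21 alternatives for Insulin-Apo and all 23 for insulin glargine, and the Albulin call was lost without Albulin replicate 1, Albulin replicate 3 or saline replicate 2.

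Gnl2, a GTPase that acts on the 60S precursor in yeast (Nog2), had 11.06, 10.94 and 10.86 in the Albulin arrays, 11.00, 10.76 and 10.66 in the Insulin-Apo arrays, 10.98, 10.98 and 11.03 in the insulin glargine arrays and 10.31, 10.38 and 10.46 in the saline arrays (probe set 10508019). No insulin array overlapped saline. The log2 difference from saline was 0.57 ± 0.09 after Albulin (adjusted p = 0.00747, limma) and 0.61 ± 0.09 after insulin glargine (adjusted p = 0.00109). After Insulin-Apo it was 0.42 ± 0.09, with an adjusted p of 0.0344 and a B under 0.

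Nol8, a nucleolar protein, had 10.51, 10.32 and 10.45 in the Albulin arrays, 10.47, 10.59 and 10.19 in the Insulin-Apo arrays, 10.20, 10.12 and 9.66 in the insulin glargine arrays and 9.83, 9.49 and 9.88 in the saline arrays (probe set 10405074). All Albulin and Insulin-Apo arrays lay above saline, while insulin glargine replicate 3 fell among the saline arrays. Its log2 fold change was 0.69 ± 0.12 after Albulin (adjusted p = 0.0106, limma), 0.68 ± 0.12 after Insulin-Apo (adjusted p = 0.0133) and 0.26 ± 0.15 after insulin glargine, the last uncalled (adjusted p = 0.355). The Albulin call was lost without Albulin replicate 1 or 3, and the Insulin-Apo call without Insulin-Apo replicate 1 or 2 and in a fit of only the Insulin-Apo and saline arrays. Both were also lost in the fit of all 12 arrays, the one that gave the insulin glargine value, with B just under 0 (adjusted p = 0.0305 after Albulin and 0.0418 after Insulin-Apo, limma). In that fit Nol8 was therefore called after none of the insulins.

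The PeBoW complex, which matures the 60S rRNAs, had no called member. Its log2 fold changes after Albulin, Insulin-Apo and insulin glargine were 0.14, 0.15 and 0.46 for Pes1, 0.08, 0.06 and 0.14 for Bop1 and 0.14, 0.25 and 0.39 for Wdr12. Wdr12 was read from a probe set that is numbered among chromosome 7 neighbours although the gene lies on chromosome 1, so the value may include a near-identical copy, and its other probe set gave 0.13, 0.19 and 0.42. Pes1 after insulin glargine had an adjusted p of 0.0117 (limma) and a B under 0. The rRNA methyltransferase Nop2 had 0.05, 0.15 and 0.12, Nop16 0.00, 0.14 and 0.09, Rrs1, which brings the 5S particle into the 60S precursor in yeast, 0.02, -0.03 and -0.03, Nol9, a polynucleotide kinase of rRNA processing, 0.22, 0.24 and 0.15 and Noc3l 0.22, 0.25 and 0.15.

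Of the 4 abundant nucleolar proteins, 1 was called higher, after insulin glargine, where 2.24% of all probe sets were. Ddx21, an RNA helicase of rRNA transcription and processing, had 10.59, 10.32 and 10.77 in the Albulin arrays, 10.44, 10.18 and 10.32 in the Insulin-Apo arrays, 10.66, 10.71 and 10.80 in the insulin glargine arrays and 10.28, 9.98 and 10.12 in the saline arrays (probe set 10369630). The insulin glargine arrays lay above all Insulin-Apo and saline arrays, the Albulin arrays lay above saline but overlapped insulin glargine, and the Insulin-Apo arrays overlapped saline. In log2 terms it differed from saline by 0.60 ± 0.12 after insulin glargine (adjusted p = 0.00529, limma), 0.43 ± 0.12 after Albulin and 0.19 ± 0.12 after Insulin-Apo. The insulin glargine call was lost without any 1 insulin glargine array and without saline replicate 2 or 3.

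Ncl (nucleolin), a histone chaperone and rRNA binding protein, had 11.57, 11.42 and 11.65 in the Albulin arrays, 11.51, 11.32 and 11.48 in the Insulin-Apo arrays, 11.69, 11.86 and 11.99 in the insulin glargine arrays and 11.54, 11.39 and 11.55 in the saline arrays (probe set 10356312). Insulin glargine arrays lay above all others, and the other groups overlapped. The log2 fold change stood at 0.35 ± 0.09 after insulin glargine, with an adjusted p of 0.0303 (limma) and a B under 0, and 0.05 after Albulin and -0.06 after Insulin-Apo. Mybbp1a, a nucleolar protein of rRNA transcription and processing, had 0.29, 0.17 and 0.61, with an adjusted p of 0.0113 after insulin glargine. Npm1 (nucleophosmin), a chaperone of ribosome assembly, had -0.21, -0.16 and -0.0029 and was not called.

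The insulins were also compared with each other at the same dose and time. Between Albulin and Insulin-Apo, no member was called (0 of 40, where 0.639% of all probe sets were called in either direction), 0 were higher and 1 was lower at an unadjusted p under 0.05 (limma), against 6.44% and 7.11% of all probe sets, and the median difference was 0.03, against 0.02 over all probe sets. The median half-width of the members' 95% intervals was 0.19. For Nop58 the difference was 0.19 (95% interval -0.07 to 0.46), for Gnl3 -0.05 (-0.26 to 0.17), for Tsr1 0.11 (-0.09 to 0.32) and for Nol8 0.01 (-0.26 to 0.28). Each of these intervals includes 0, and the lack of a call does not show that both fusions act alike. Without Albulin replicate 2 the median difference was 0.11. No cell type marker was called in this comparison. At an unadjusted p under 0.05 (limma), 3 of 5 B cell markers were higher after Albulin. So were 1 of 11 hepatocyte, 1 of 11 neutrophil and 1 of 5 cholangiocyte markers. By the same rule 3 of 11 Kupffer cell and macrophage markers and 3 of 10 T and NK cell markers were lower after Albulin.

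Between Albulin and insulin glargine, no member was called (4.35% of all probe sets in either direction), 1 was higher and 9 lower at an unadjusted p under 0.05 (limma), against 11% and 9.97% of all probe sets, and the median difference was -0.08, against 0.01 over all probe sets. With an adjusted p under 0.05, 2 members were lower after Albulin, against 4.13% of all probe sets, and these were Nop56 at -0.43 ± 0.12 (adjusted p = 0.0368) and Rrp12 at -0.38 ± 0.09 (adjusted p = 0.0223). All Albulin arrays lay below all insulin glargine arrays for 7 members, against 10.7% of all probe sets. Nol8 ran the other way at 0.43 (95% interval 0.10 to 0.76), with an adjusted p of 0.105. The count of called members was 1 without insulin glargine replicate 1 and 1 without insulin glargine replicate 3. In the same comparison, 6 of 11 neutrophil markers (median difference 0.51) and 2 of 5 B cell markers (median 0.44) were called higher after Albulin. So was 1 of 9 endothelial markers (Kdr, 0.66). The endothelial list went both ways, with 5 positive, a median of 0.06 and Lyve1 lowest at -0.66. The part of these cell types in the members' differences was not tested.

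Between Insulin-Apo and insulin glargine, 1 member was called, Rrp12, which was lower after Insulin-Apo at -0.52 ± 0.09 (adjusted p = 0.00351, limma), where 4.84% of all probe sets were called in either direction. At an unadjusted p under 0.05, 1 was higher and 13 were lower, against 12.6% and 10.9% of all probe sets, and the median difference was -0.09, against -0.02 over all probe sets. With an adjusted p under 0.05, 4 members were lower, against 4.53% of all probe sets, and these were Rrp12, Ncl at -0.41 ± 0.09, Ddx21 at -0.41 ± 0.12 and Wdr36 at -0.26 ± 0.07. All Insulin-Apo arrays lay below all insulin glargine arrays for 12 members, against 12.8% of all probe sets. The Rrp12 call was lost without Insulin-Apo replicate 2 or 3 and in a fit of only the arrays of both groups, and the count was 2 without insulin glargine replicate 1. Markers called higher after Insulin-Apo in this comparison were 4 of 11 for neutrophils (median difference 0.55), 2 of 11 for Kupffer cells and macrophages (Marco and Cd68), 1 of 10 for T and NK cells (Nkg7) and 1 of 9 for endothelium (Kdr, 0.53), while 1 of 5 cholangiocyte markers was lower (Krt19, -0.52). Here too the endothelial list went both ways, with 5 of 9 positive, a median of 0.02 and Lyve1 lowest at -0.76. The part of these cell types in the members' differences was not tested either.

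A moderated F test over the 4 treatments called 15 of the 40 members with an adjusted p under 0.05 (limma), where 13.3% of all probe sets were called. In order of adjusted p these began with Gnl3 (0.00197), Gnl2 (0.00225), Nop58 (0.00259), Tsr1 (0.00356), Rrp12 (0.00382) and Heatr1 (0.00623), followed by Ddx21, Nol8, Nop56, Utp20, Nop14, Ncl, Mybbp1a, Pes1 and Rrn3. Without saline replicate 2 the count was 7. Since the F test uses the same arrays as the comparisons with saline, it is not a separate line of evidence.

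Other gene lists of ribosome production, written with earlier results of these data known, were counted beside the members, so they are no independent set. Of all probe sets, 1.37%, 1.34% and 2.24% were called higher and 1.04%, 0.804% and 2.6% lower after Albulin, Insulin-Apo and insulin glargine. At an unadjusted p under 0.05 (limma), 8.98%, 9.13% and 10.6% were higher and 9.08%, 8.28% and 11.9% lower. These shares also apply to the lists of the next paragraph. Of 105 other ribosome assembly factors tested, 6 were called higher and 0 lower after Albulin, 5 and 0 after Insulin-Apo and 9 and 1 after insulin glargine, with median log2 fold changes of 0.12, 0.13 and 0.19. Bysl, a 40S factor, was called higher after each insulin, at 0.41 after Albulin, 0.43 after Insulin-Apo and 0.77 after insulin glargine, and Rcl1, a processome protein, was lower after insulin glargine (-0.36). Sdad1, a 60S factor, was called at 0.51 after Albulin and 0.57 after insulin glargine, and Eif6, which keeps the subunits apart, at 0.50 after Insulin-Apo. Of 17 other RNA polymerase I genes, none was called against saline, and at an unadjusted p under 0.05 1 was higher and 2 lower after Albulin, 2 and 0 after Insulin-Apo and 2 and 4 after insulin glargine (limma).

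Cytosolic ribosomal proteins, the products that the assembly factors put together, were not called in any comparison with saline (0 of 55 tested). Their median log2 fold changes were -0.06 after Albulin, 0.06 after Insulin-Apo and 0.01 after insulin glargine, and at an unadjusted p under 0.05 1 was higher and 4 lower after Albulin, 2 and 0 after Insulin-Apo and 2 and 0 after insulin glargine (limma). The ribosomal protein list held 79 genes, and those without a probe set of their symbol alone were left out. Some had many probe sets, such as Rpl23a with 10 and Rpl13 with 9. Only the one with the highest mean was read. Of the RNA polymerase III genes, which make 5S rRNA and tRNA, 0 of 20 were called after Albulin or Insulin-Apo (4 higher and 2 lower, and 3 and 1, at an unadjusted p under 0.05 by limma), and after insulin glargine Polr3gl (-0.48) and Gtf3a (-0.57) were called lower. None of the 19 cell cycle genes was called against saline, and at an unadjusted p under 0.05 2 were higher and 1 lower after Albulin, 0 and 0 after Insulin-Apo and 2 and 1 after insulin glargine (limma). Of the 13 genes of the MYC network, known regulators of ribosome production, Max was called higher after Insulin-Apo (0.37), and no other was called against saline.

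**Figure D5:**
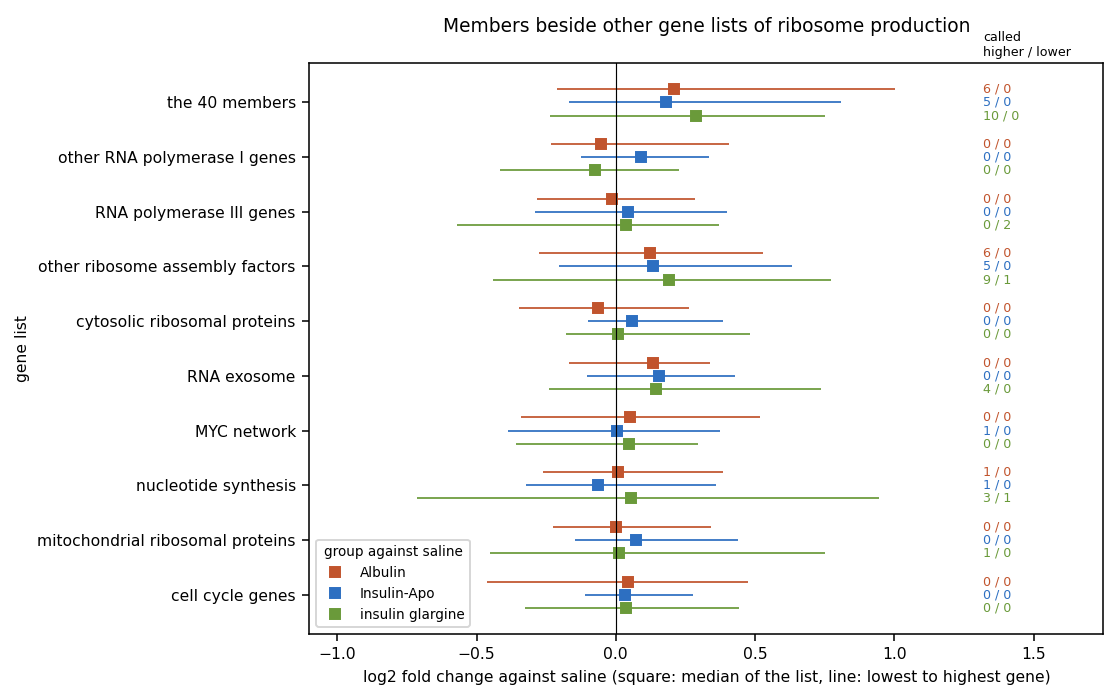
Each row shows 1 gene list, with the median log2 fold change against saline as a square and the lowest to highest gene as a line, for Albulin, Insulin-Apo and insulin glargine, and the counts called higher and lower at the right. The members have medians of 0.21, 0.18 and 0.29, and the cytosolic ribosomal proteins -0.06, 0.06 and 0.01.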

How the data were processed

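Liver expression was measured on 12 arrays (Affymetrix Mouse Gene 1.0 ST). The deposited values are log2 expression values that the authors made with RMA, which corrects background, normalizes and summarizes probes. Its version, the annotation build and whether RMA was run on all 12 arrays at once were not given in the sources used here. The methods do not describe the insulin glargine arrays. Whether arrays come from different mice is not stated, so the p values reflect the variation among arrays, which may be technical, and their number limits the precision. Of 28213 probe sets, 21640 carried 1 symbol, 1321 several and 5252 none, and only those with 1 were used for the members.

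Groups came from the labels. A value over 5 was required on 2 or more arrays of at least 1 group, and 25989 probe sets passed in the 9 arrays of Albulin, Insulin-Apo and saline, 26027 in all 12. These 3 groups were compared in a limma 3.58.1 fit of the 9 arrays (R 4.3.3), while comparisons with insulin glargine and the F test used all 12. Differences are the group named first minus the other. B used a prior proportion of 0.01, and Benjamini-Hochberg adjustment ran over all probe sets. The fit was tested on simulated data. Python 3.11.15 with matplotlib 3.10.9 drew the figures.

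The members and lists were chosen with earlier results of these data known. Values per array are given for members called in at least 2 of the 6 comparisons, for the 2 members of each role group with the smallest F test p and for the RNA polymerase I members. The Utp18 arrays, and Utp20 and Nop14 beside them, were described after their values were seen. Up to 4 genes per other list were named by the F test. Alternatives were no filter on dim probe sets, a limit of 6 in place of 5, median centring, a further quantile normalization, a block for the replicate number, an intensity trend, array quality weights, a call by adjusted p under 0.05 with and without a log2 change of 0.58 or more, averaging a gene's probe sets, other arrays in the fit and leaving out each array. The other probe sets of Wdr12 and Fbl were chosen after the data were seen.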

Additional observations from a re-analysis of the deposited data

How the results depend on the processing

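No called member and no median over the members changed sign under the alternatives. Of the uncalled members, 6 of 34 changed sign after Albulin, 6 of 35 after Insulin-Apo and 6 of 30 after insulin glargine under at least 1 alternative, all with a log2 fold change of at most 0.08 in size. Between the insulins 17 of 40, 13 of 40 and 11 of 39 did (Albulin against Insulin-Apo, Albulin against insulin glargine and Insulin-Apo against insulin glargine). Members called with an adjusted p under 0.05 alone numbered 18 for insulin glargine against saline, 2 for Albulin against insulin glargine and 4 for Insulin-Apo against insulin glargine. With a log2 change of at least 0.58 as well, they numbered 3 for Albulin, 3 for Insulin-Apo and 0 for Insulin-Apo against insulin glargine. With only the arrays of the 2 groups compared, the count was 2 for Insulin-Apo against saline and 0 for Insulin-Apo against insulin glargine. With each array left out in turn, the counts ranged from 3 to 7 for Albulin, 2 to 4 for Insulin-Apo and 4 to 10 for insulin glargine against saline, from 0 to 1 for Albulin against insulin glargine and from 0 to 2 for Insulin-Apo against insulin glargine. The F test count ranged from 7 to 17. The median difference of Albulin minus Insulin-Apo ranged from 0.0045 to 0.11. Over all probe sets, an adjusted p under 0.05 called 1219 in place of 626 for Albulin, 969 in place of 556 for Insulin-Apo and 2848 in place of 1259 for insulin glargine against saline.

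Replicate numbers did not pair the arrays (correlations of deviations from -0.27 to 0.15 over 18 same-numbered pairs, 2 of them over 0.1). With the replicate number as a block, 7 members were called after Albulin, 4 after Insulin-Apo, 9 after insulin glargine and 14 by the F test, with 0, 0 and 1 between the insulins. The block lost the Utp18 call after Insulin-Apo and the Utp20 and Nop14 calls after insulin glargine, and it added Ddx21 after Albulin and Nol10 after insulin glargine. With 3 arrays per group, the fits had median interval half-widths of 0.19 (9 arrays) and 0.22 (12 arrays) on the log2 scale. For a member with the median width, a smaller difference was not resolved, and other members had narrower or wider intervals.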

Other observations

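Some genes outside ribosome assembly that serve RNA production also differed, as values only. The nucleotide synthesis list went both ways. At an unadjusted p under 0.05 (limma), 3 were higher and 4 lower after Albulin (median log2 fold change 0.01). After Insulin-Apo 4 and 4 were (median -0.06), and after insulin glargine 4 and 2 (median 0.05). Of all probe sets, 8.98% and 9.08%, 9.13% and 8.28%, and 10.6% and 11.9% were, in the same order. Called higher were 1.37%, 1.34% and 2.24% of all probe sets, and lower 1.04%, 0.804% and 2.6%. Of 20 nucleotide synthesis genes tested, Gmps, which makes GMP, was called higher after each insulin, at 0.39 after Albulin, 0.36 after Insulin-Apo and 0.69 after insulin glargine (log2, limma B over 0). After insulin glargine, Ppat, the first committed enzyme of purine synthesis, was higher at 0.95 and Ctps, which makes CTP, at 0.75, while Umps of pyrimidine synthesis was lower at -0.44. Ppat was -0.26 after Albulin and -0.32 after Insulin-Apo against saline, both uncalled, and was called lower after Albulin than after insulin glargine (-1.21) and lower after Insulin-Apo than after insulin glargine (-1.27).

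Of 13 RNA exosome genes, which trim rRNA precursors, 4 were called higher after insulin glargine (Mphosph6 0.74, Dis3 0.52, Mtrex 0.43 and Exosc10 0.33). Of all probe sets, 2.24% were. No exosome gene was called after Albulin or Insulin-Apo. There 5 and 5 were higher at an unadjusted p under 0.05 (limma), against 8.98% and 9.13% of all probe sets. Of 40 mitochondrial ribosomal proteins, Mrps31 was called higher after insulin glargine (0.75), where 2.24% of all probe sets were, and no other against saline. These genes share the arrays of the comparisons above, and no difference between lists was tested.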
